A study of Homo sapiens with 6 samples.

Results

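The mitochondrial ribosome is the particle that translates the few mRNAs of the mitochondrial genome, all of which encode subunits of the oxidative phosphorylation complexes. Its RNAs are transcribed in the mitochondrion, whereas its proteins are encoded by nuclear genes, made in the cytosol and imported. The particle has a large subunit, which joins amino acids, and a small subunit, which reads the mRNA, and it carries many proteins that bacterial ribosomes lack. The genes described here are those whose symbol starts with MRPL or MRPS followed by a number, and the rule found 78 of the 14959 genes in the table. By the current naming of the particle, 51 of them encode large subunit proteins and 26 encode small subunit proteins. The symbols do not always give the subunit: MRPS30 and MRPS18A encode large subunit proteins (mL65 and mL66), and MRPS36 encodes KGD4, a component of the 2-oxoglutarate dehydrogenase complex that is not part of the ribosome.

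RNA was sequenced from UM-SCC1 cells, an established line from a human head and neck squamous cell carcinoma. The cells were transfected either with miR-204-5p mimics, small RNAs that supply the mature miRNA, or with control mimics, and were harvested 48 hours later. Each group had 3 libraries, which the labels describe as independent experiments, and no other cell line or dose was sequenced. Expression was given as FPKM, fragments normalised to transcript length and to the number of mapped fragments, so that levels can be compared between genes per length. Fold changes are given as mimics over control on the scale of log2(FPKM + 1), where changes of genes with low values come out too small, and a gene was called higher or lower at a limma adjusted p under 0.05 over all 14959 genes. Bulk RNA cannot separate a change in every cell from a change in the share of cells that carry the transcript or took up the mimic.

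The depth of the libraries, estimated from the steps of the lowest values, was 13100000 to 16400000 fragments. The summed FPKM of all genes was 3.11% higher after transfection of the miRNA. All 6 squamous epithelial markers (KRT5, KRT14, KRT17, KRT6A, TP63 and SFN) were in the table, with a summed FPKM of 785 to 874 with miR-204-5p mimics and 902 to 928 with control mimics. Of 5 fibroblast markers, 2 were in the table, with a sum of 8.04 to 10.6, nearly all of it COL1A1. The 5 immune and endothelial markers summed to 10.6 to 12.5, most of which was CD68, while PTPRC, CD3E, PECAM1 and VWF were below 1 in every library. The squamous sum was lower in every library with the mimics, but its genes went both ways: TP63, KRT14 and KRT5 were called lower (log2 fold changes of -1.01, -0.51 and -0.43), SFN and KRT6A were called higher (0.26 and 0.81), and KRT17 was not called. The part of these differences in the results below was not tested.

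A miRNA pairs with mRNAs mainly through its seed, bases 2 to 8 from its 5′ end, and binding in a 3′UTR commonly lowers the level of the mRNA. The mature miR-204-5p has 22 bases and lies in the RefSeq table at chr9:70810031-70810052 on the minus strand (GRCh38.p14). It is shown with the seed in capitals because the sites searched in the ribosomal protein genes follow from it.
hsa-miR-204-5p: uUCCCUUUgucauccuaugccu

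Each member's longest annotated 3′UTR (GENCODE 29, GRCh38) was searched on the mRNA strand for AAAGGGAA (an 8mer), AAAGGGA (a 7mer that pairs with the whole seed) and AAGGGAA (a 7mer with an A opposite base 1), each mRNA counted once by its longest match. A match was found in 15 of the 78 members. It was an 8mer in 8 (MRPL17, MRPL19, MRPL22, MRPL27, MRPL35, MRPL42, MRPS17 and MRPS34), a whole-seed 7mer in 3 (MRPL4, MRPS25 and MRPS27) and the other 7mer in 4 (MRPL11, MRPL51, MRPS11 and MRPS23). The 4 members with the lowest fold changes of all, MRPS34, MRPS17, MRPL51 and MRPL19, were among these 15. The place of MRPL19, which was not called, rested on 1 library. Without replicate 3 with the mimics its log2 fold change was -0.32. MRPS6, which had no match, stayed between -0.44 and -0.42 whichever library was left out. The matches of the 4 members are printed with flanks, the match in capitals, together with 3 further 8mers in genes whose fold changes lay near 0 or above it.
MRPS34 (last exon, 3 of 3; chr16:1771901-1771930, minus strand): cagaagctatgAAAGGGAAtaaagagaaaa
MRPS17 (last exon, 3 of 3; chr7:55955190-55955219, plus strand): aagaaggatctAAAGGGAAaaactgacatg
MRPL51 (last exon, 3 of 3; chr12:6492205-6492234, minus strand): tcaccctggagAAGGGAAactgtacttttc
MRPL19 (last exon, 6 of 6; chr2:75655561-75655590, plus strand): ggaacctgagcAAAGGGAAtaggtgggatg
MRPL22 (last exon, 6 of 6; chr5:154967151-154967180, plus strand): gagtaactttgAAAGGGAAtgttaactttc
MRPL35 (last exon, 4 of 4; chr2:86212725-86212754, plus strand): taacttacgggAAAGGGAAtttcatacata
MRPL42 (last exon, 6 of 6; chr12:93505460-93505489, plus strand): tgcttttaggcAAAGGGAAtgcttcttcag

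The matches did not lie at one place in the 3′UTR. The MRPS34 match began at base 302 of a short 3′UTR of 331 bases, close to its end, and that of MRPS17 began at base 23 of 1323. In MRPL51 the match began at base 48 of 385, whereas the 8mer of MRPL42 began at base 4250 of the longest 3′UTR in the family, 14992 bases. MRPL19 also held a 7mer at base 658 of its 2575 bases. In 12 of the 15 members the match lay within the transcript that the table lists for the gene, while in MRPL27, MRPL4 and MRPS11 it lay only in another annotated transcript.

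Across the family more genes were higher than lower with miR-204-5p mimics. Of the 78 members, 35 were called higher (44.9%, against 23.9% of all genes), 8 were called lower (10.3%, against 16.8% of all genes) and 35 were not called. The FPKM of the groups did not overlap in 41 members that were higher (30.9% of all genes) and in 11 that were lower (22.7% of all genes), and overlapped in 26. The median log2 fold change of the members was 0.15, beside 0.03 for all genes and 0.04 for the 11504 genes whose mean FPKM reached 1 or more, a level that all 78 members reached. Of those 11504 genes, 27.7% were called higher and 20.1% lower, both larger shares than among all genes. Most of the increases were small: 28 of the 35 genes called higher had a log2 fold change under 0.5, and the median of the 35 corresponded to a 1.26-fold higher FPKM. In the opposite direction 3 of the 8 genes called lower had a log2 fold change of -0.5 or less. Of the 35 members that were not called, 19 lay within 0.1 of no change.

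**Figure D1:**
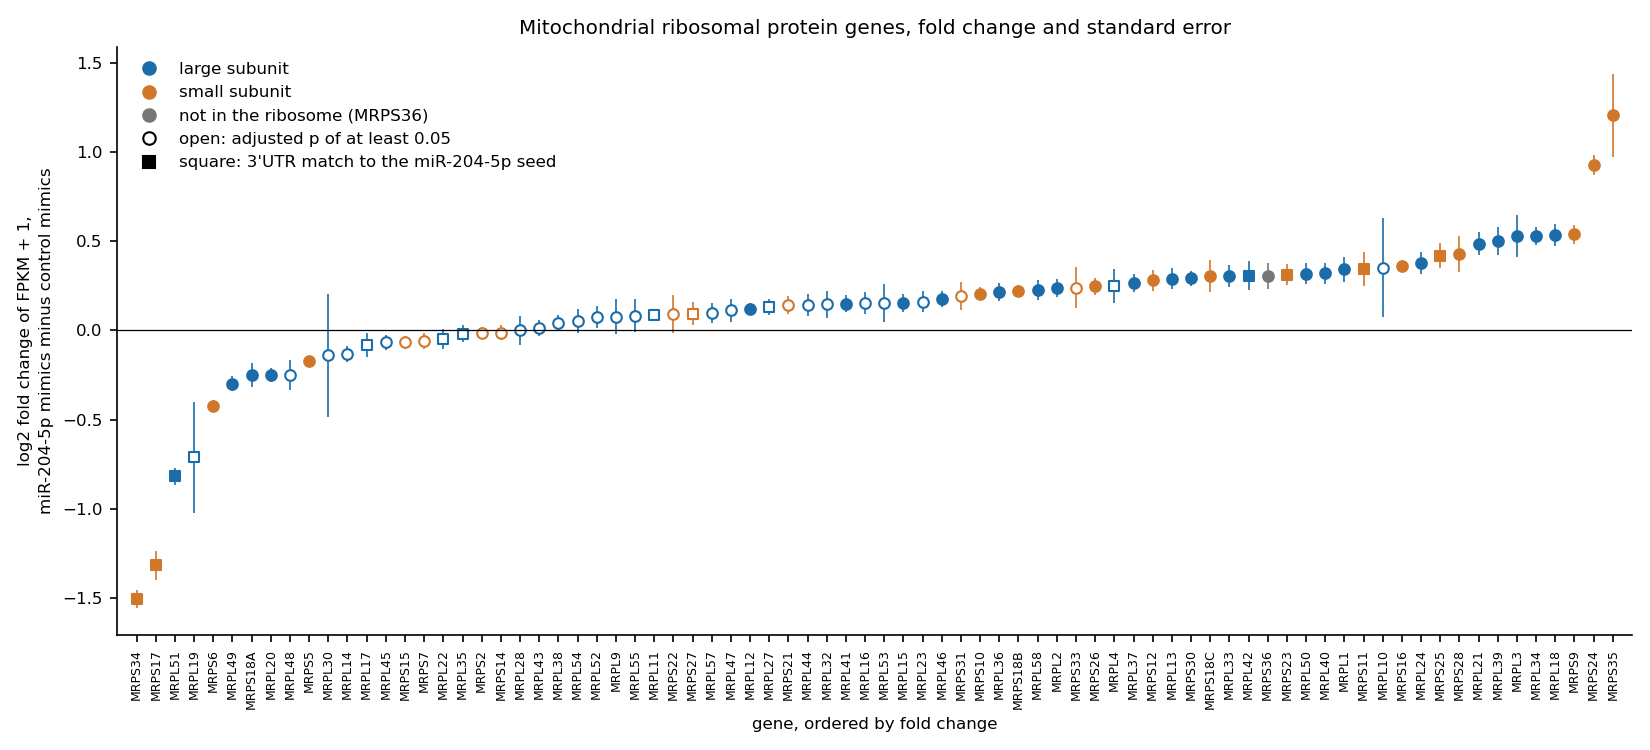
Log2 fold change (miR-204-5p mimics minus control mimics, log2 scale of FPKM + 1, vertical axis) of each of the 78 members in increasing order, with its standard error as a bar. Filled symbols are genes called at an adjusted p under 0.05, colours give the subunit and squares mark a seed match, which the 4 leftmost genes, from -1.51 to -0.71, all have. The rightmost of these, MRPL19, was not called and owed its place to 1 library.

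MRPS34 and MRPS17 fell the furthest. MRPS34 encodes mS34, a small subunit protein without a bacterial counterpart that is needed for stable small subunits. Its FPKM was 43.3, 39.5 and 44.2 with miR-204-5p mimics and 119, 124 and 123 with control mimics. The groups were far apart, with a level 65.3% lower with the mimics (log2 fold change -1.51 ± 0.05 SE, limma adjusted p = 2.32e-05). MRPS17 encodes uS17m, which in bacteria is one of the proteins that bind the small subunit rRNA directly. MRPS17 was at 4.80, 3.94 and 4.14 with the mimics and at 11.3, 12.3 and 12.9 with control mimics, 64.7% lower (log2 fold change -1.32 ± 0.08, limma adjusted p = 0.000113). Although this gene is among the lower expressed of the family, each library held an estimated 116 to 392 of its fragments, and every control library was above every library with the mimics.

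Exons of MRPS17 overlapped those of NIPSNAP2, which lies on the same strand, and the table lists NIPSNAP2 at 24.6, 32.7 and 37.0 with the mimics and 27.3, 22.7 and 23.2 with control mimics, so that the neighbour was not lower when MRPS17 was. MRPS34 had no such neighbour.

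MRPL51 was the lowest large subunit gene. It encodes mL51, a protein of the large subunit with no bacterial counterpart. MRPL51 stood at 54.5, 54.3 and 50.9 FPKM with the mimics and at 92.4, 91.7 and 99.6 with control mimics, 43.7% lower without overlap (log2 fold change -0.82 ± 0.05, limma adjusted p = 9.72e-05). Exons of NCAPD2, a condensin subunit gene on the opposite strand, overlapped MRPL51, and NCAPD2 was also called lower (-0.25 on the log2 scale, limma adjusted p = 0.0106). The library kit is not stated to keep strand, so reads in the shared bases cannot be told apart.

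MRPL19, which encodes bL19m at the contact between the subunits, was below control in all 3 libraries with the mimics but was not called. Its FPKM was 11.5, 13.0 and 4.86 with the mimics and 15.2, 14.8 and 16.6 with control mimics. Replicate 3 with the mimics lay far under the other two, and with it the estimate was -0.71 ± 0.31 on the log2 scale (limma adjusted p = 0.117). Without that library the estimate was smaller and the call was made (-0.32, limma adjusted p = 0.0241).

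The other genes called lower had no seed match in the longest 3′UTR, and their decreases were smaller. MRPS6, for the small subunit protein bS6m, was at 31.3, 30.3 and 30.6 with the mimics and 41.7, 41.0 and 42.2 with control mimics, a narrow spread in both groups and a decrease of 26.1% (log2 fold change -0.43 ± 0.03, limma adjusted p = 0.000243). MRPL49, for the mitochondria-specific mL49, was at 45.4, 48.3 and 49.7 against 59.8, 57.5 and 59.5, or 19.0% lower (limma adjusted p = 0.00242). MRPL20, for bL20m, a protein that in bacteria acts early in large subunit assembly, was at 23.6, 24.1 and 23.9 against 29.01, 27.3 and 29.4, or 16.5% lower (limma adjusted p = 0.00386). The smallest decreases that passed the test were those of MRPS18A, at 16.4% (limma adjusted p = 0.0267), and of MRPS5, at 11.5% (limma adjusted p = 0.0061). MRPS5 encodes uS5m, whose bacterial counterpart lines the mRNA entry of the small subunit. For MRPS18A the lowest control library, 28.9, stood only just above the highest library with the mimics, 28.1, and the call was lost when replicate 2 or 3 of either group was left out (limma adjusted p of 0.0722 to 0.0834).

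At the other end stood 2 small subunit genes. MRPS35, for the mitochondria-specific mS35, was at 36.8, 23.6 and 36.3 FPKM with the mimics and at 9.65, 14.3 and 16.4 with control mimics. The groups were apart, but this was the gene called in the test whose libraries varied most, and its 2.40-fold higher mean corresponded to a rise of 1.20 ± 0.23 on the log2 scale (limma adjusted p = 0.0072). MRPS24 encodes uS3m, the counterpart of a bacterial protein at the mRNA entry. Its FPKM of 125, 109 and 118 with the mimics was above the 59.1, 60.6 and 63.8 with control mimics in every pairing of libraries, 91.7% higher (log2 fold change 0.93 ± 0.06, limma adjusted p = 0.000113). The read-through gene URGCP-MRPS24, which shares exons with MRPS24, was listed below 1 FPKM in all libraries.

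The next 6 genes rose by 42.3% to 46.7%. MRPS9, for uS9m, whose bacterial counterpart reaches the tRNA in the small subunit, was at 48.2, 46.8 and 44.0 against 30.5, 31.1 and 33.3 with control mimics (log2 fold change 0.54 ± 0.05, limma adjusted p = 0.00048). Among large subunit genes, MRPL18 (uL18m) was at 63.1, 65.7 and 59.6 against 41.5, 41.3 and 46.5 (0.53 ± 0.06, limma adjusted p = 0.000891). MRPL34, for bL34m, was at 33.2, 29.4 and 31.3 against 21.3, 21.3 and 21.4 (0.53 ± 0.05, limma adjusted p = 0.000453). In these 3 genes the lowest library with the mimics was well above the highest control library. MRPL3 encodes uL3m, whose bacterial counterpart lies near the site of peptide bond formation, and was at 53.0, 68.0 and 53.3 against 37.0, 44.8 and 37.8 (0.53 ± 0.12, limma adjusted p = 0.0124). MRPL39 (mL39) rose by 0.50 ± 0.08 (limma adjusted p = 0.00334) and MRPL21 (bL21m) one of 0.49 ± 0.07 (limma adjusted p = 0.00174). MRPL3 had its highest library in replicate 2 of both groups, and its standard error was the widest of these 6.

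**Figure D2:**
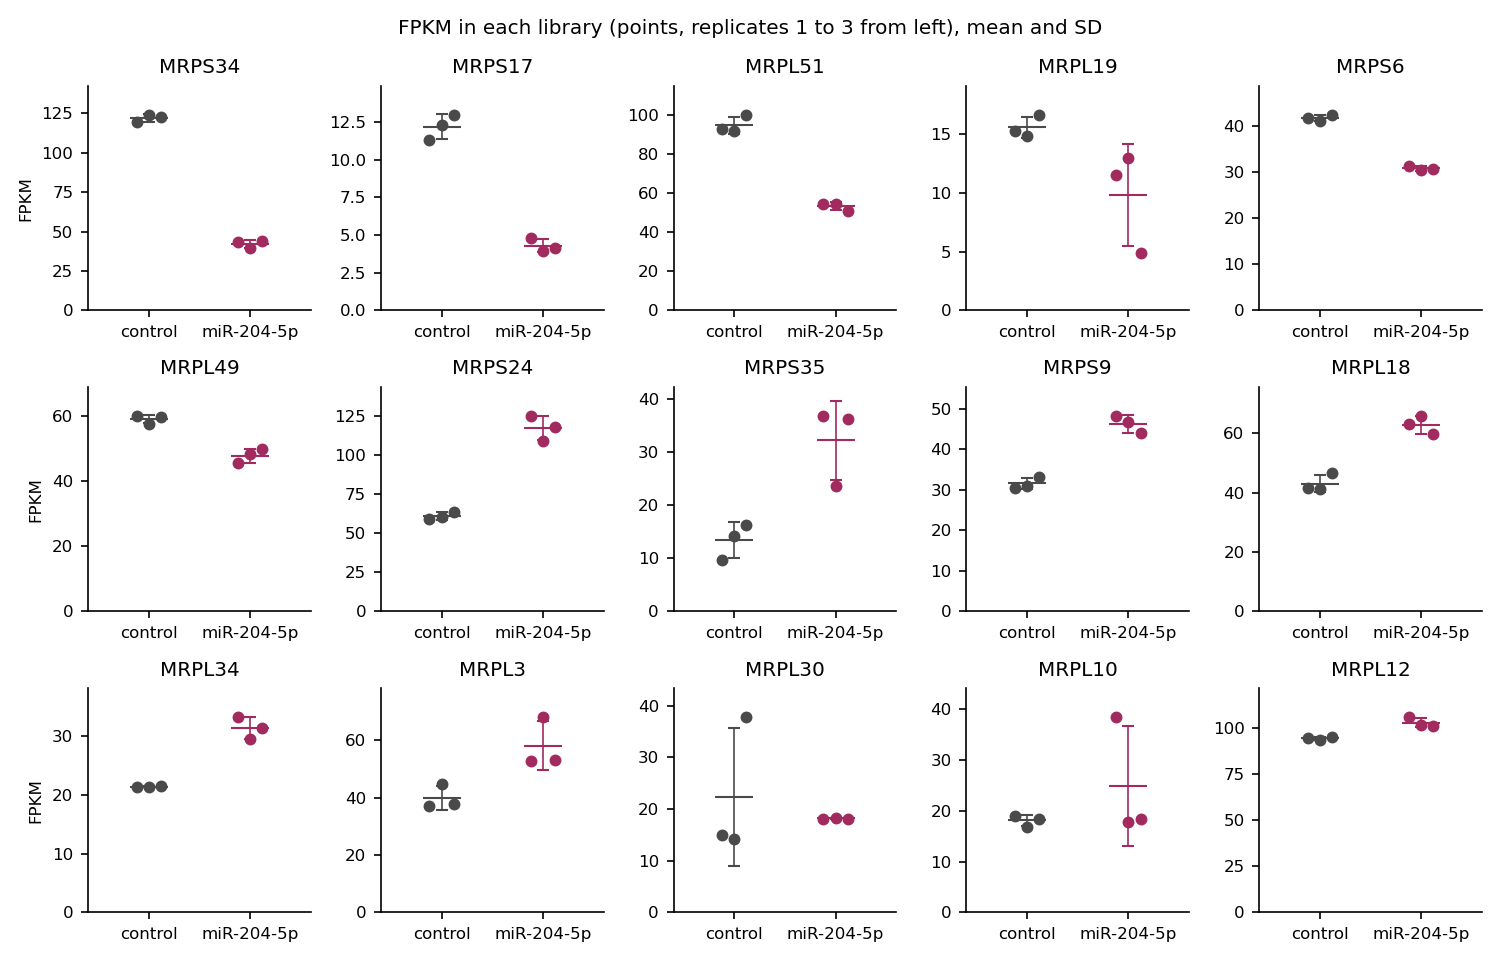
FPKM (vertical axis, starting at 0, a scale for each gene) of 15 members in each library with control mimics (grey) and miR-204-5p mimics (red), with the mean and SD of 3. MRPS34, MRPS17 and MRPL51 are lower and MRPS24 and MRPS9 higher without overlap, whereas a single library stands apart for MRPL19, MRPL30 and MRPL10.

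In both subunits more genes were called higher than lower. Of the 51 large subunit genes 21 were called higher (41.2%, against 23.9% of all genes) and 4 lower (7.84%, against 16.8% of all genes). Their median log2 fold change was 0.14. Of the 26 small subunit genes 13 were called higher and 4 lower, with a median of 0.21. The share called lower in the small subunit, 15.4%, was thus close to the 16.8% of all genes. The most extreme members at both ends, MRPS34, MRPS17, MRPS24 and MRPS35, all encode small subunit proteins. Genes for proteins with a bacterial counterpart (46 genes: 20 higher, 4 lower, median 0.15) and for mitochondria-specific proteins (31 genes: 14 higher, 4 lower, median 0.15) had called shares of 43.5% and 45.2% for higher and 8.70% and 12.9% for lower; the difference between the groups was not tested. Within the small subunit, 8 of 16 genes with a bacterial counterpart were called higher and 3 lower (18.75%, against 16.8% of all genes). Of its 10 mitochondria-specific genes 5 were called higher and 1 lower. Within the large subunit, the counts were 12 higher and 1 lower (3.33%) of 30, and 9 higher and 3 lower (14.3%) of 21. Differences of these shares from those of all genes were not tested.

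Around the flexible stalks of the large subunit, which engage translation factors and tRNA, the genes differed. MRPL12, for the stalk protein that recruits translation factors, was among the 4 most abundant members and was at 105.8, 101.5 and 101.3 FPKM with the mimics against 94.6, 93.7 and 94.95. This was 8.96% higher without overlap (log2 fold change 0.12, limma adjusted p = 0.0255). The call was kept in 2 of the 6 fits that leave out a library (limma adjusted p of up to 0.0823) and lost when FPKM were scaled to equal sums (0.079, limma adjusted p = 0.0715) or equal medians (0.099, limma adjusted p = 0.0677). MRPL11 at the base of that stalk, a gene with a seed match, was at 37.7, 37.3 and 37.2 against 35.96, 34.5 and 35.3, also without overlap, but was not called (0.08, limma adjusted p = 0.0926). MRPL10, which anchors MRPL12, was at 38.4, 17.9 and 18.4 against 19.0, 16.9 and 18.5. The estimate, 0.35 on the log2 scale with a limma adjusted p of 0.358, rested on replicate 1 with the mimics and was 0.0033 without that library. MRPL1, on the opposite stalk near the exit of tRNA, rose by 0.34 on the log2 scale (limma adjusted p = 0.00907).

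Among other members with a known particular role, MRPL45, which holds the ribosome to the inner membrane at the tunnel exit, had a log2 fold change of -0.07 and overlapping groups. MRPL44, related to ribonuclease III, had one of 0.14 (limma adjusted p = 0.113). MRPL58, a peptidyl-tRNA hydrolase that is also built into the large subunit, was called higher (0.22, limma adjusted p = 0.0192), but not without replicate 1 or 2 with the mimics (limma adjusted p of up to 0.0644). MRPS12, the protein of the decoding centre, was called higher as well (0.28, limma adjusted p = 0.00989), while the pentatricopeptide repeat protein gene MRPS27 was not called (0.09, limma adjusted p = 0.303).

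The 3 human relatives of bacterial protein S18 did not move together. MRPS18A, whose product sits in the large subunit, was called lower (log2 fold change -0.25), whereas MRPS18B (0.22, limma adjusted p = 0.00303) and MRPS18C (0.30, limma adjusted p = 0.036), both for small subunit proteins, were called higher. The call of MRPS18C was lost without replicate 1 or 2 of either group (limma adjusted p of up to 0.11). MRPS18B was at 64.4, 66.6 and 65.2 FPKM with the mimics and 55.2, 57.5 and 55.4 with control mimics. Most of the listed MRPS18C transcript, 1296 of 1643 bases, overlapped exons of ABRAXAS1 on the opposite strand, which was itself called higher (0.64, limma adjusted p = 0.000454) at a level of 3.97 ± 0.14 against 2.19 ± 0.11 FPKM (SD, n = 3). MRPS30, for mL65 of the large subunit, was called higher (0.29, limma adjusted p = 0.00223), and so was MRPS36, outside the ribosome (0.31, limma adjusted p = 0.0154, and up to 0.0511 without control replicate 1 or 2).

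Levels spread over nearly 2 orders of magnitude, from 1.44 to 122 FPKM with a median of 25.1 in the control group, and from 2.00 to 117 with a median of 27.8 with miR-204-5p mimics. The top of the order changed between the groups: MRPS34 was the highest member with control mimics (122 ± 2.27 FPKM, SD, n = 3) and lay at 42.3 ± 2.47 with the mimics, while MRPS24 was the highest with the mimics (117 ± 7.82) and lay at 61.2 ± 2.41 with control mimics. MRPS15 (108 ± 3.33 against 113 ± 1.88) and MRPL28 (86.6 ± 4.80 against 86.9 ± 9.07) stayed near the top of both groups without a call. MRPS15 and MRPL12 with the mimics, at 108 ± 3.33 and 103 ± 2.55, were closer to each other than to the rest, and the lowest library of MRPS15 (104.8) lay below the highest of MRPL12 (105.8).

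The lowest level was that of MRPL42, whose listed transcript of 15582 bases is the longest of the family. MRPL42 was at 1.98, 2.11 and 1.92 FPKM with the mimics and 1.34, 1.27 and 1.71 with control mimics. With its 8mer it was called higher (log2 fold change 0.31 ± 0.08, limma adjusted p = 0.025), on an estimated 277 to 525 fragments a library. The call was lost in 4 of the 6 fits that leave out a library, those without replicate 1 or 2 of either group (limma adjusted p of up to 0.0775), and under quantile normalization (0.22, limma adjusted p = 0.0863). MRPL48 (3.58 ± 0.41 against 4.44 ± 0.23, log2 fold change -0.25, limma adjusted p = 0.0545) and MRPS11 (5.69 ± 0.37 against 4.28 ± 0.56, 0.34, limma adjusted p = 0.0262) followed. MRPS11 rested on an estimated 55 to 97 fragments a library, and its 55 in control replicate 1 was the lowest of any member. Its call was kept in 2 of the 6 fits that leave out a library (limma adjusted p of up to 0.0777).

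Read over all 15 members with a seed match, the direction was mixed. In this group 3 were called lower and 4 higher, with a median log2 fold change of 0.08. Of all 3967 genes of the table with a match, 26.97% were called lower and 16.41% higher, with a median of -0.03. The difference of the 15 members from these shares was not tested. Among the 63 members without a match 5 were called lower and 31 higher, with a median of 0.16. For the 8 members with an 8mer the counts were 2 lower and 1 higher, with a median of -0.07. Over all genes of the table, 33.5% of those with an 8mer were called lower and 13.3% higher, against 13.5% lower and 27.2% higher among those without a match. A seed match alone did not mark the members that fell: MRPL35 (-0.02), MRPL22 (-0.05) and MRPL17 (-0.08), each with an 8mer in the listed transcript, had overlapping groups. MRPL35, for example, was at 8.19, 8.42 and 7.94 FPKM with the mimics and 8.39, 8.37 and 8.15 with control mimics, and MRPL17 at 26.55, 25.02 and 23.2 against 26.6, 24.7 and 28.1.

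MRPL27, whose 8mer lay outside the listed transcript, was at 11.2, 11.4 and 11.01 against 9.80, 10.2 and 10.3, apart in the direction of an increase but not called (0.13, limma adjusted p = 0.0535). Of the members with a 7mer, MRPS25 (0.42), MRPS11 (0.34) and MRPS23 (0.31, limma adjusted p = 0.0066) were called higher, and MRPL4 (0.25, limma adjusted p = 0.0847) was not. MRPS25, for the mitochondria-specific mS25, was at 15.3, 16.3 and 16.8 against 10.8, 12.05 and 12.7, without overlap (limma adjusted p = 0.0037).

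**Figure D3:**
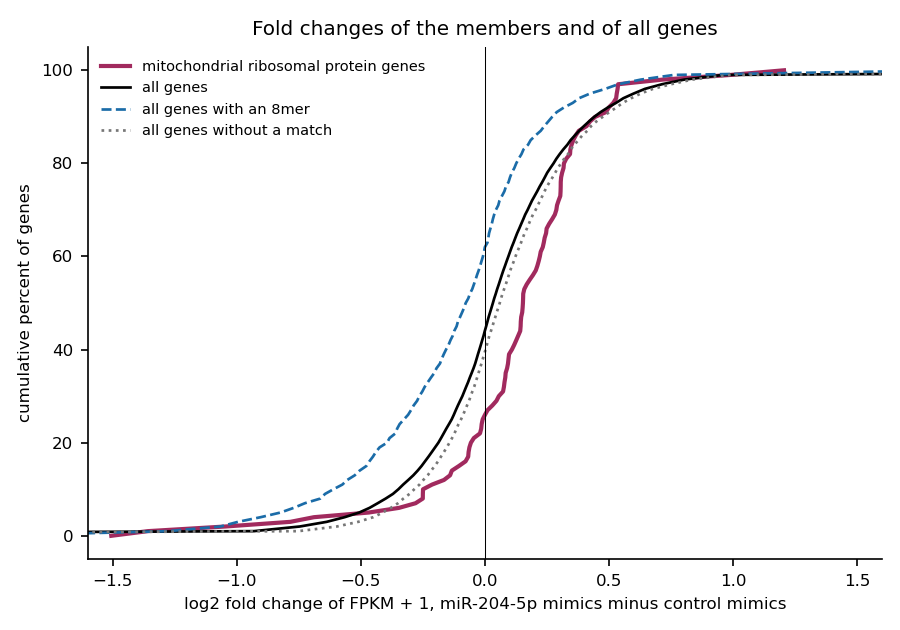
Cumulative percent of genes (vertical axis) at or below a log2 fold change (horizontal axis, miR-204-5p mimics minus control mimics) for the 78 members, for all genes and for all genes with an 8mer or without a match. The members' curve lies to the right of that of all genes at the median (0.15 against 0.03). It crosses to the left in the lower tail, where MRPS34, MRPS17, MRPL51 and MRPL19 lie (-1.36 against -0.93 at percentile 1). In the upper tail it is again to the left from percentile 93 to 98, for example at percentile 97 (0.54 against 0.71). At percentile 99 it is to the right (0.99 against 0.96).

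The summed level of the family changed little, with large decreases and many small increases in the same sum. The 78 members summed to 2752, 2658 and 2617 FPKM with miR-204-5p mimics and to 2442, 2480.2 and 2611 with control mimics, so that each library with the mimics was above each control library, the closest pair by a small margin. The means, 2676 ± 69.4 and 2511 ± 88.5 (SD, n = 3), differed by 6.55%. As a share of the summed FPKM of all genes, which was itself higher with the mimics, the members made up 0.933% ± 0.0099 and 0.903% ± 0.026, and here control replicate 3 (0.932%) was above replicate 3 with the mimics (0.923%). Control replicate 3 was the highest control library in 58 of the 78 members, and without it the difference of the sums was 8.71%. The sums of the large subunit genes (1673 ± 49.6 against 1566 ± 63.3) and of the small subunit genes (975 ± 22.6 against 924 ± 24.7) were 6.87% and 5.59% higher with the mimics.

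**Figure D4:**
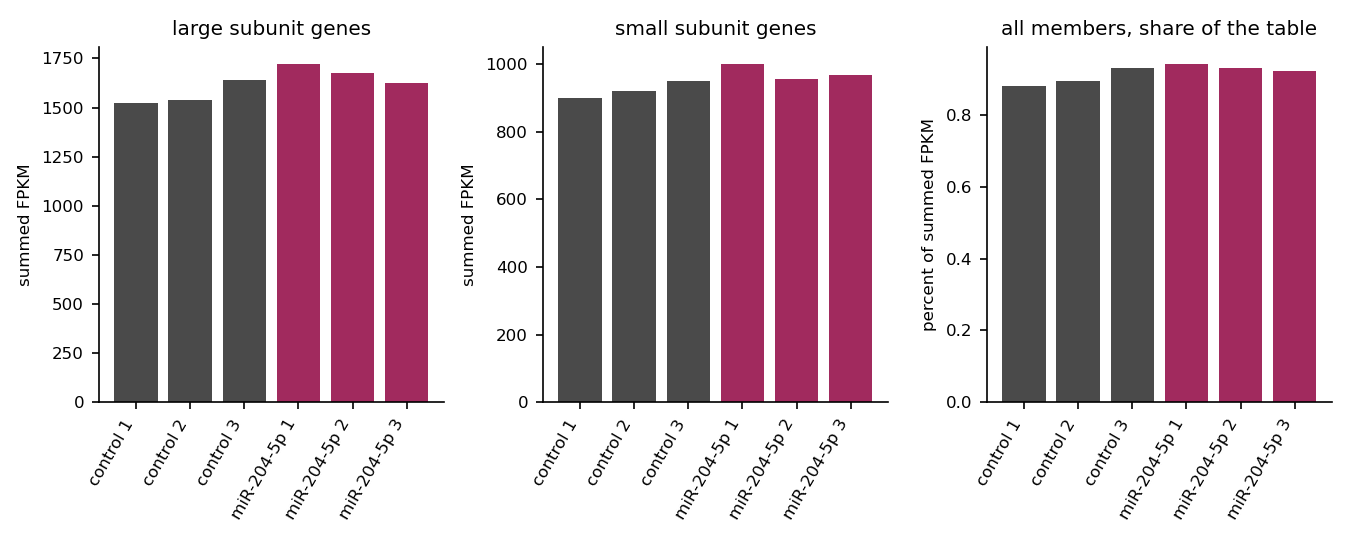
Summed FPKM of the 51 large and 26 small subunit genes, and the share of all 78 members in the summed FPKM of the table in percent (vertical axes, starting at 0), in each of 3 control libraries (grey) and 3 libraries with miR-204-5p mimics (red). Both sums have a higher mean with the mimics, but control replicate 3 reaches 1638 in the large subunit, above the 1623 of replicate 3 with the mimics.

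In MRPL30 1 library also stood apart, as in MRPL10 and MRPL19, and the 3 were singled out after their values were seen. Without that library the estimate of MRPL10 was near 0, whereas MRPL19 stayed lower (-0.32). MRPL30 was at 18.1, 18.3 and 18.1 FPKM with the mimics and at 14.97, 14.2 and 37.7 with control mimics. The log2 fold change was -0.14 (limma adjusted p = 0.778) with control replicate 3 and 0.30 (limma adjusted p = 0.00706) without it. In none of the members was the highest library of a group over 3 times the lowest.

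Overlaps of exons with another listed gene affected 21 members, in 8 of them on their own strand and in 13 on the other. Among the 57 members without such an overlap 28 were called higher (49.1%, against 23.9% of all genes) and 3 lower (5.26%, against 16.8% of all genes). The 3 called lower were MRPS34, MRPL20 and MRPS5. The other 5 genes called lower each had a neighbour in their exons: NIPSNAP2 for MRPS17, NCAPD2 for MRPL51, SLC5A3 for MRPS6, FAU for MRPL49 and RSPH9 for MRPS18A. Of these neighbours NCAPD2 was called lower, whereas SLC5A3 (log2 fold change -0.14), FAU (0.11), RSPH9 (-0.04) and NIPSNAP2 (0.34) were not called. Pseudogenes named after the gene are annotated for 36 members, 81 in all, and 15 of the genes called higher and 7 of those called lower have at least 1. Reads shared with such copies could not be assessed from FPKM.

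Of the 5 mitochondrial ribosome proteins that carry no MRP name, only PTCD3 was called, and the median log2 fold change of the 5 was 0.08. With so few genes, 1 call cannot be told from the 23.9% of all genes called higher. PTCD3 rose from 11.9, 12.1 and 12.3 to 14.8, 15.4 and 14.2 FPKM (0.27 on the log2 scale, limma adjusted p = 0.0047). DAP3, which encodes a GTP-binding small subunit protein, was at 29.4, 33.6 and 29.2 with the mimics and 31.0, 29.9 and 37.8 with control mimics, with overlapping groups. AURKAIP1 (-0.08), GADD45GIP1 (0.08) and CHCHD1 (0.14) were not called either.

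Genes that build the mitochondrial ribosome or modify its RNA included several larger increases than most members. Of 22 such genes 9 were called higher (40.9%, against 23.9% of all genes) and 1 lower (4.55%, against 16.8%), with a median log2 fold change of 0.17. TFB1M, the methyltransferase that modifies the small subunit rRNA, was at 17.1, 13.0 and 13.6 against 6.56, 7.19 and 8.14 FPKM (0.90 ± 0.12, limma adjusted p = 0.00151), and MRM1, a methyltransferase of the large subunit rRNA, rose by 0.78 on the log2 scale (limma adjusted p = 0.00029). The gene called lower was RBFA, a factor of small subunit maturation with an 8mer in its 3′UTR, at 5.97, 5.24 and 5.81 against 6.91, 8.72 and 9.09 (-0.46, limma adjusted p = 0.0131). Among 13 translation factor genes 4 were called higher (30.8%, not far from the 23.9% of all genes) and 0 lower by limma (against 16.8% of all genes; 0 lower also at an unadjusted p under 0.05), and the median was 0.16. The largest of these increases was that of GFM2, which acts in ribosome recycling (0.54, limma adjusted p = 0.000734), followed by MTIF3, an initiation factor (0.35, limma adjusted p = 0.0222, called in only 2 of the 6 fits that leave out a library), and TUFM, the elongation factor that delivers tRNA, was at 208, 200.3 and 208 against 179, 181 and 188 (0.17, limma adjusted p = 0.011).

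Of 12 genes for the copying, transcription and RNA stability of mitochondrial DNA, 8 were called higher (66.7%, against 23.9% of all genes) and 1 lower (8.33%, against 16.8%), with a median of 0.23. They included PNPT1, a ribonuclease of mitochondrial RNA (0.67, limma adjusted p = 0.00146), and SLIRP, which stabilises mitochondrial mRNAs (0.58, limma adjusted p = 0.00728). The gene called lower was POLG, for the DNA polymerase (-0.27, limma adjusted p = 0.00845). Its listed transcript has only 100 bases, and its values rest on an estimated 17 to 27 fragments a library. The transcripts of the mitochondrial genome that the ribosome translates were not analysed here. Of 7 regulators of mitochondrial biogenesis in the table, 2 were called lower (28.6%, against 16.8% of all genes) and 1 higher (14.3%, against 23.9%). With so few genes these shares cannot be told from those of all genes. Called lower were NRF1 (-0.22, limma adjusted p = 0.0287) and YY1 (-0.22, limma adjusted p = 0.0288), factors that bind promoters of nuclear genes for mitochondrial proteins. The coactivator gene PPARGC1B (0.36, limma adjusted p = 0.0423) was called higher at a level of 0.40 to 1.12 FPKM. These 3 calls were weak, since NRF1 was called in 2, YY1 in 1 and PPARGC1B in 1 of the 6 fits that leave out a library (limma adjusted p of up to 0.0858, 0.0872 and 0.111). GABPA, for the DNA-binding subunit of another such factor, was not called (-0.11, limma adjusted p = 0.215).

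**Figure D5:**
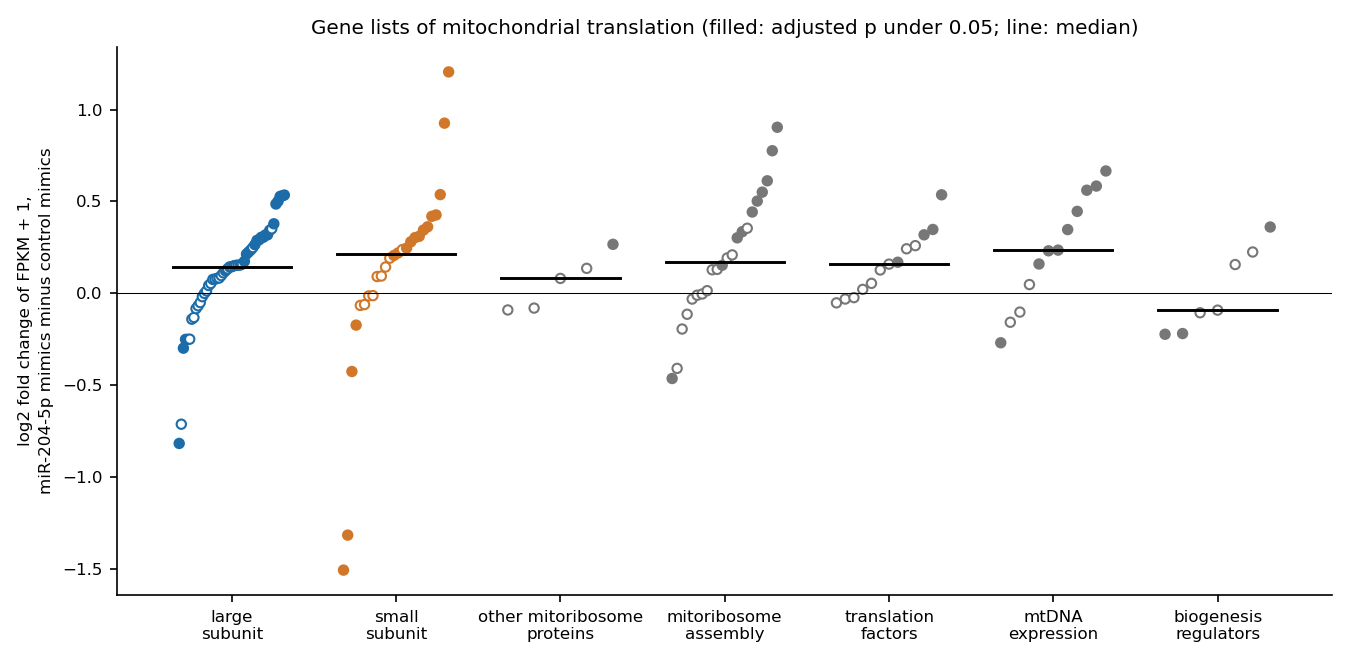
Log2 fold change (vertical axis, miR-204-5p mimics minus control mimics) of each gene in the large and small subunit groups and in 5 lists of related genes, filled where the adjusted p was under 0.05, with the median of each list as a line. Medians lie between 0.08 and 0.23 except for the regulators of biogenesis, at -0.09.

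Promoters of these genes share short motifs, and since many members rose together the promoters were examined. RefSeq windows from 250 bases before to 50 bases after a start site were at hand for 69 members, 85 windows in all (GRCh38.p14), and were searched on both strands. CCGGAAG, the core bound by ETS factors such as GABPA, was in 33 of the 85 windows (38.8%), against 15.3% of the windows of all genes in the table and 10.3% of all 35116 windows. AAGATGGC, a core of YY1 sites, was in 23 (27.1%), against 4.29% and 2.89%. CGCATGCG, a core of NRF1 sites, was in 3 (3.53%, against 2.96% and 2.02%), GGGCGGG, bound by SP factors, in 40 (47.1%, against 48.2% and 33.1%), and TATAAA in 3 (3.53%, against 6.92% and 11.5%). Some genes have more than 1 window, and such windows can overlap, so that a stretch is counted more than once. Counted by gene, CCGGAAG was in 30 of 69 members and 2337 of 11452 genes of the table. AAGATGGC was in 21 of 69 members and 671 of 11452 genes. CCGGAAG ends with the letters AAG that begin AAGATGGC, so adjoining matches of these can share bases, and a match is a description of the sequence only.

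The ETS and YY1 cores were found at both ends of the family and among the genes between. CCGGAAG was in 12 of 35 windows of genes called higher, in 4 of 10 of genes called lower and in 17 of 40 of genes not called, and AAGATGGC was in 10 of 35, 4 of 10 and 9 of 40. GGGCGGG was more unevenly spread, in 16 of 35 windows of genes called higher, 8 of 10 of genes called lower and 16 of 40 of genes not called, and CGCATGCG and TATAAA each in 1 of 35, 0 of 10 and 2 of 40. With 10 windows from 8 genes called lower, these shares rest on few genes, and their differences were not tested. The stretches that hold these motifs are shown for a gene called higher and a gene called lower with both (MRPS10 and MRPL20), and for the genes with the largest decrease and the second largest increase (MRPS34 and MRPS24), motifs in capitals on the strand of the gene, where CTTCCGG is CCGGAAG on the other strand.
MRPS10 (chr6:42217837-42217891, minus strand): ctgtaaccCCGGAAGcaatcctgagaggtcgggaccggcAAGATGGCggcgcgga
MRPL20 (chr1:1407263-1407345, minus strand): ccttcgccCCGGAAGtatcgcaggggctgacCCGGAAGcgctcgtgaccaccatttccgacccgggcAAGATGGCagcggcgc
MRPS34 (chr16:1773139-1773213, minus strand): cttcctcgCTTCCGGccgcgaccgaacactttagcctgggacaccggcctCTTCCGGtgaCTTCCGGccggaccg
MRPS24 (chr7:43869483-43869506, minus strand): cttggcccAAGATGGCggcctccg

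The YY1 core lay at a median of 9 bases after the start site and the ETS core at a median of 26 bases before it, each within a range that began 222 bases upstream. A match in overlapping windows of the same gene was counted in each window. MRPS10, a small subunit gene whose window holds both, was at 38.4, 40.1 and 37.8 FPKM with the mimics against 33.1, 33.9 and 33.4 (0.21 on the log2 scale, limma adjusted p = 0.00548), and MRPL20, with both as well, was lower, as given above. Members with the same cores in their promoters thus stood on both sides of no change.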

How the data were processed

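RNA of 6 libraries (3 per group) was analysed. The authors aligned the reads to hg38 with HISAT2 and estimated expression with StringTie per the labels; versions, annotation and strand setting are not given in the sources used here. The deposited FPKM values were used as given. Columns of fold changes, p-values and FDR of the authors' own edgeR comparison were not used, and as FPKM are not counts that test was not repeated. limma 3.58.1 (R 4.3.3; lmFit, eBayes with trend, two-sided, Benjamini-Hochberg over all 14959 genes) was fitted to log2(FPKM + 1) of all 6 libraries without covariates. Tested on simulated data of this comparison with 200 genes of the 14959 changed, it called 54 of 100 at a log2 change of 0.5, 91 of 100 at 1, and 8 unchanged genes. In the real data far more genes were called (2520 lower and 3578 higher), which loosens the adjusted threshold. The simulated counts therefore do not give the share of real changes found here. The bound first set for the smaller change was not met and was replaced after this result was seen.

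Depth is not in the table. Multiples of the smallest step in genes with 1 annotated transcript gave 13100000 to 16400000 fragments per library, with 22.5% to 26.8% of the low values whole within 0.02, against at most 5.24% at wrong steps. This estimator replaced one that failed in 1 library, and the depths are approximate; no count test was run, since most values were not whole. Gene positions, exon overlaps and 3′UTRs came from GENCODE 29, whose lengths are those of all 78 members in the table, and miRNA and promoter sequences from RefSeq (GRCh38.p14).

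The members, lists and tests were chosen with earlier results of these data known. Named were the 8 lowest and 8 highest fold changes among called members without overlap, the 4 highest and 3 lowest levels, members with a seed match, members of particular roles, members whose libraries differ over 3 times (none), the 5 proteins without an MRP name, and the extremes of the related lists. Tried as alternatives were another pseudocount, a filter, other scalings, no trend, a replicate block, leaving out each library, and leaving out members with overlaps or seed matches.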

Additional observations from a re-analysis of the deposited data

How the results depend on the processing

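Of the members called, 7 of 8 lower and 24 of 35 higher were called in each of 13 refits (pseudocount 0.1, mean FPKM of at least 1, 3 other scalings, no trend, the replicate block and the 6 fits that leave out a library), and none changed sign. The calls lost somewhere were that of MRPS18A and those of MRPL12, MRPL15, MRPL36, MRPL41, MRPL42, MRPL46, MRPL58, MRPS11, MRPS18C, MRPS28 and MRPS36. Leaving out a library gave 7 to 8 lower and 26 to 35 higher members, a median of 0.13 to 0.19 and a summed difference of 5.03% to 8.71%. In these fits 13.7% to 15.2% of all genes were called lower and 19.2% to 21.0% higher. Scaling FPKM to equal sums gave 11 lower and 30 higher members, beside 19.3% of all genes called lower and 20.6% higher. With this scaling the summed difference was 3.34% instead of 6.55%. Chosen after seeing the data, leaving out members with an exon overlap on either strand left 3 of 57 lower (5.26%). Leaving out those with a seed match left 5 of 63 lower (7.94%). Both shares were below the 10.3% of all 78 members and the 16.8% of all genes, and these differences were not tested. Without 1 library the estimates of 9 members that were not called lay on both sides of 0. They were MRPL43, MRPL54, MRPL55, MRPL9, MRPS14 and MRPS2, beside MRPL28, MRPL30 and MRPL35. Among the genes named by the rule the sign turned for DAP3 (0.010 without control replicate 3; range over the left-out libraries -0.15 to 0.010), MRPL28 (0.043 without mimics replicate 3, 0.0017 and 0.073 without control replicates 2 and 3; -0.076 to 0.073), MRPL30 (0.30 without control replicate 3; -0.38 to 0.30) and MRPL35 (0.00086 without mimics replicate 3; -0.037 to 0.00086), of which only MRPL30 was then called; the cause was not tested. Deviations of same-numbered libraries from their group means were nearly uncorrelated over all genes (-0.03, -0.01 and -0.09). These correlations weigh noisy genes with low values like all others, so they cannot show whether same-numbered libraries were handled together. The replicate block gave 7 lower and 27 higher members, beside 14.02% of all genes called lower and 20.05% higher. At this depth the smallest change called among members was 0.12 on the log2 scale, beside a median standard error of 0.06.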
